A study of Mus musculus with 80 samples.

Results

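Homeobox genes outside the Hox clusters were taken as the autosomal protein-coding genes of mm10 whose symbol is 1 of 29 family prefixes (from Alx, Barhl and Barx to Vax and Vsx) followed by digits, digits joined by a hyphen, or 1 letter. The pattern took 104 of 21631 protein-coding genes on the autosomes and the X, or of 20665 on the autosomes. It also took Eng, Islr and Paxx, which share letters with the prefixes and encode no homeodomain. They were kept as the pattern gives them, and means without them are stated where they matter. For every gene, coverage was the percent of its span plus 2 kb on either side that lay inside deposited H3K27me3 peaks.

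The study profiled H3K27me3 by CUT&RUN, which uses an antibody-directed nuclease to release marked chromatin, in fibroblasts bead-purified from mouse uterine myometrium and endometrium. Kdm6b encodes a demethylase of this mark, and the series asks how the mark changes through gestation with and without it. In the Kdm6b set, females carried floxed Kdm6b alleles (Kdm6b f/f) and were mated to B6 males. The conditional knockouts, called cKO here, carried in addition Pgr-Cre, which drives recombination where the progesterone receptor gene is on, or Pdgfra-Cre, which is active in fibroblasts and other mesenchymal cells. All controls were Kdm6b f/f, so both sides of each comparison carried the floxed alleles. For Pgr-Cre, cKO and control lists exist for tissue between implantation sites (IIS) of GD5.5 (gestation day 5.5), GD8.5 and GD14.5. They also exist for the implantation sites themselves (IS) of GD14.5 and GD18.5. Pdgfra-Cre is represented by GD14.5 IS alone, with a control list of its own. A separate set of B6CBAF1/J females with no Kdm6b alteration in their labels gave 4 conditions. They were whole uterus on GD0.5, IIS on GD5.5, uterus on GD5.5 of females mated to a vasectomized male, and uterus of non-pregnant females given progesterone for 3 days (NP P4). Each group of 3 samples was pooled by the authors into 1 peak list, which leaves 12 lists in the Kdm6b set, 6 cKO and 6 control, and 4 lists in the B6CBAF1/J set. No difference between the 2 sets was computed or tested. Because lists pool their samples, there are no replicate values behind a list, and the error stated below is the spread over lists or over pairs, with pairs taken as independent although IIS and IS fibroblasts of a day may come from the same females.

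A homeodomain is a DNA-binding fold of helices, and the genes that encode it set the identity of body regions, limbs, eyes, gut segments and neurons in the embryo. H3K27me3 is written by Polycomb repressive complex 2 and in differentiated cells typically lies in wide domains over developmental regulators of other lineages, which are kept silent. The Müllerian duct that becomes the uterus needs Lhx1, Pax2, Pax8 and Emx2, and in the adult uterus Msx1 and Msx2 take part in the preparation of the endometrium for the embryo.

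The lists held 131900 to 287629 peaks. Most were weak calls, with a median −log10 p of 0.577 to 0.667, and the files give no read depth. Of 9 fibroblast marker genes, 7 lay at 0 coverage in all 16 lists, as did 6797 of 20665 autosomal genes. The 9 genes had a mean of 3.93% over the 12 lists, against 89.1% for epithelial, 63.8% for immune and 77.0% for trophoblast markers. Smooth muscle markers had 22.3% and endothelial markers 12.5%. Low coverage was not particular to fibroblast markers, since Des of smooth muscle and Cd68 of immune cells also lay at 0 in all 16 lists. Pdgfra itself, a defining fibroblast gene, lay at 9.29% to 38.8%, and Thy1, the other fibroblast marker with peaks, at 0 to 40.6%. Kdm6b coverage was at most 7.1% in every list, a value that cannot show the deletion. Autosomal covered length was higher in the cKO list in 5 of 6 pairs and lower in Pgr-Cre GD14.5 IIS, with 621 Mb against 644 Mb. The Pgr-Cre cKO list of GD14.5 IS stood apart from the other lists of the Kdm6b set. It held the most peaks of the 12 lists and no member with a peak of −log10 q of at least 2. Where computed, results that rest on it are given without it as well.

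Most non-Hox homeobox genes were covered over most of their span plus 2 kb. Mean coverage over the 104 genes was 77.6% ± 2.07 (SD over 12 lists), with a median gene at 92.4%, against a mean of 22.6% and a median of 2.74% over all autosomal genes. Without Eng, Islr and Paxx the mean was 79.9%. Of the 104 genes, 53 (51.0%) had a mean of 90% or more, against 6.52% of autosomal genes. Another 14 (13.46%) lay under 15%, against 63.7% of autosomal genes. Between 15% and 60% lay 5 genes, against 18.3% of autosomal genes. The set therefore fell into a large covered part and a small part under 15%, called uncovered here, with few genes between them. No test belongs to this description, since the genes were chosen with results of these data known.

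**Figure D1:**
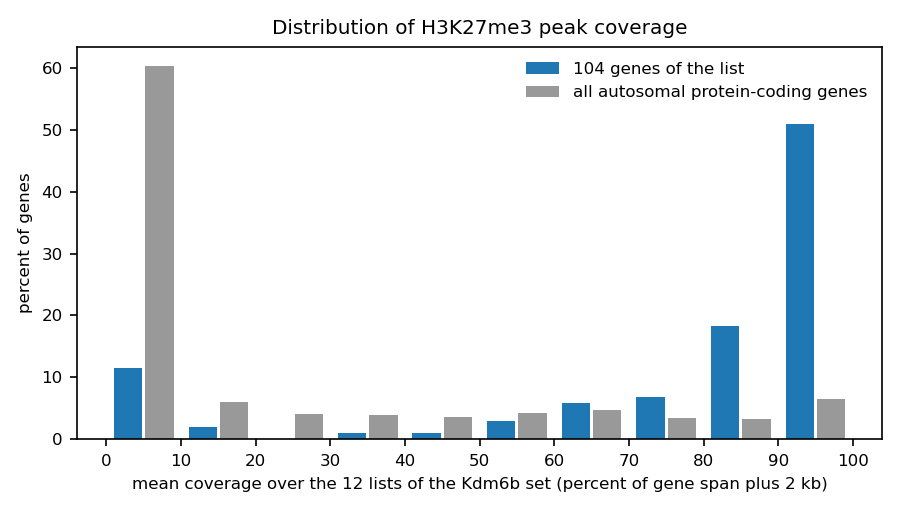
Share of genes (vertical axis, percent) by mean coverage over the 12 lists of the Kdm6b set (horizontal axis, percent of gene span plus 2 kb) for the 104 homeobox genes and for all autosomal protein-coding genes. The highest bin, from 90 to 100%, holds 51.0% of the homeobox genes and 6.52% of autosomal genes.

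Coverage came from long peaks. With 0 taken where no peak touched a gene, the longest peak had a median length of 29.5 kb over members and 0.822 kb over autosomal genes. The autosomal median includes genes without a peak, such as the 6797 at 0 in all 16 lists, and is not a typical peak length. Few of these peaks were strong. A peak with −log10 q of at least 2 touched 0 members (Pgr-Cre cKO GD14.5 IS) to 37 members (the control list of the Pdgfra-Cre set) per list, while the same share of autosomal genes ran from 0.198% to 9.75%. In any of the 12 lists, 41 members had such a peak, against 11.3% of autosomal genes, and 62 of the 104 had none in all 16 lists. Phox2a, a regulator of noradrenergic neurons, had one in 15 of 16 lists, and Shox2, which acts in limb and heart, also in 15. Both were chosen after their values were seen. From peaks of −log10 q of at least 2 alone, mean coverage of the 104 genes was 9.16% and 1 gene reached 90%. Most of the coverage therefore came from peaks under that threshold.

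The classes of homeobox genes differed in their levels. The NK-like members of the ANTP class, which pattern gut, heart, nervous system and skeleton, had the highest mean, 91.1% over 36 genes (median 98.7%). The LIM class of 12 genes, which specifies motor neurons, limb and early ducts, had 90.1% (median 94.1%). The Hox-like ANTP genes (Cdx, Evx, Gbx, Gsx and Meox, 10 genes) had 80.5% (median 84.9%), and the 24 PRD genes, among them the Pax family, 79.7% (median 87.2%). The SINE class, 6 genes of muscle, eye and kidney precursors, had a median of 84.4%. The TALE class, whose Pbx and Meis proteins bind DNA as partners of Hox proteins, had 46.0% over 13 genes with a median of 11.6%. The classes overlapped in range, and each but LIM and the Hox-like class held at least 1 gene under 15%.

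Within the TALE class the families parted. The 6 Irx genes, patterning factors of heart, limb and nervous system, averaged 95.7% with none below 83.9%. The 3 Meis genes averaged 2.51% and the 4 Pbx genes 4.00%, and none of these 7 exceeded 11.6%. The Irx genes and the Pbx and Meis genes did not overlap in mean coverage. A family split of the same kind was seen in the SINE class, with Six6 at 88.3%, Six4 at 32.9% and Six5 at 0. It was also seen in the Emx pair, with Emx1, a gene of the cerebral cortex, at 100% and Emx2 at 0 in every list.

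**Figure D2:**
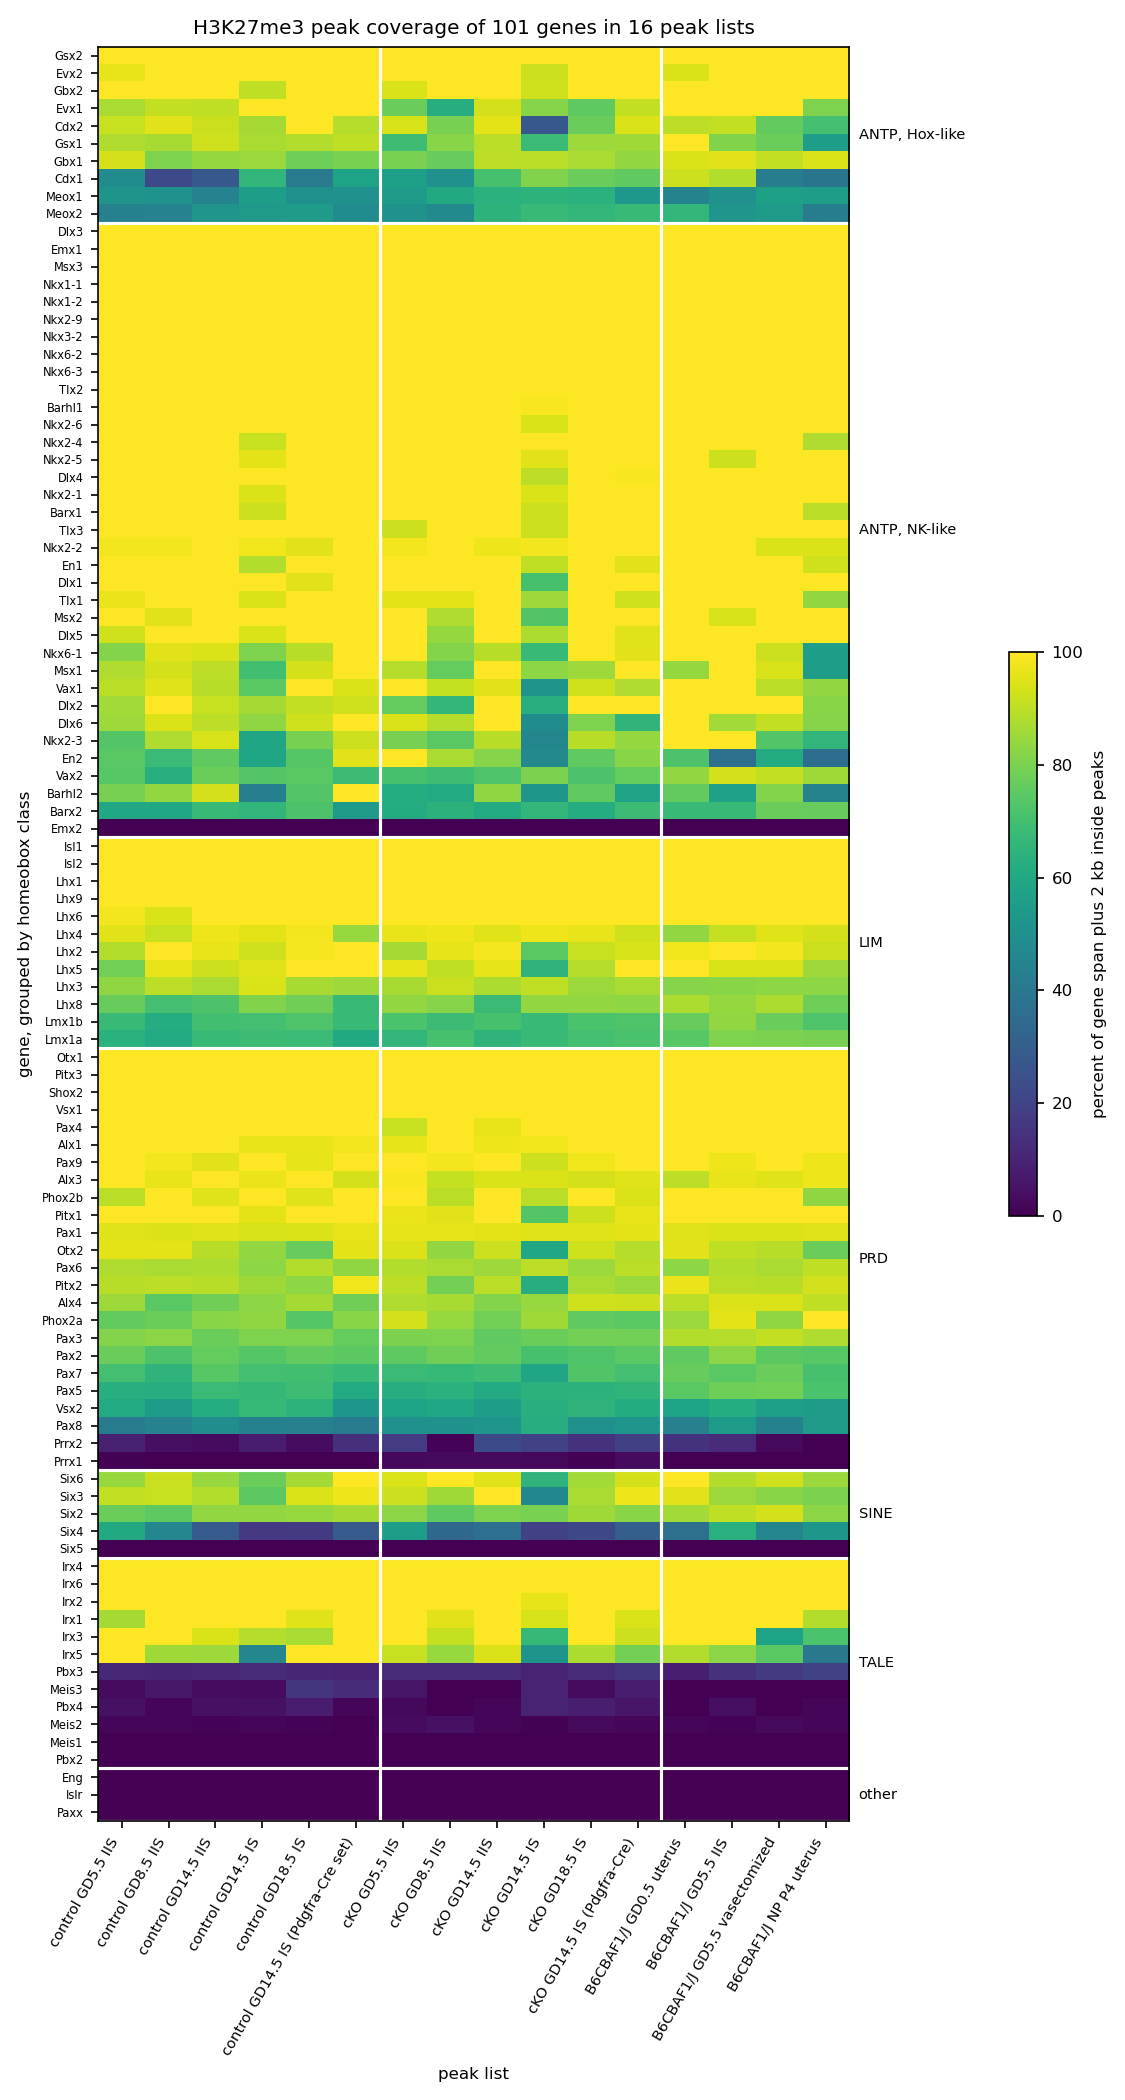
Coverage of nearly all of the 104 genes (rows, by homeobox class and then mean) in each of the 16 peak lists (columns), coloured from 0 to 100% of gene span plus 2 kb. White lines part the classes and the control, cKO and B6CBAF1/J lists. The dark rows are the genes under 15%.

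The genes with the most coverage were tied. In all 12 lists of the Kdm6b set 23 genes lay at 100%, as did 357 autosomal genes. They included Dlx3, Emx1, Gsx2, Irx4, Irx6, Isl1, Isl2, Lhx1, Lhx9, Msx3, Nkx1-1, Nkx1-2, Nkx2-9, Nkx3-2, Nkx6-2, Nkx6-3, Otx1, Pitx3, Shox2, Tlx2 and Vsx1. Isl1 and Isl2 specify motor neurons, Pitx3 midbrain dopamine neurons and Vsx1 retinal bipolar cells. Over the 12 lists 57 genes varied by less than 10 points between their lowest and highest list. A range of 50 points or more was seen in 7 genes, Cdx1, Cdx2, Barhl2, En2, Dlx6, Six3 and Irx5, of which En2 was chosen after its values were seen.

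The uncovered genes included several that act in uterine and other mesenchyme. Emx2 (chromosome 19, 59458690 to 59465357), Pbx2, Six5, Eng, Islr and Paxx lay at 0 in all 16 lists. Meis1, a Hox partner, had a peak in 1 list, Pgr-Cre cKO GD8.5 IIS, that covered 0.339%. Prrx1 (chromosome 1, 163245119 to 163315145), a homeobox gene of limb and craniofacial mesenchyme, had 1.13% over the 12 lists and Meis2 1.71%. Pbx4 had 4.39%, Meis3 5.80%, Prrx2 11.2% and Pbx3 11.6%.

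Among the genes known from the uterus or Müllerian duct, Emx2 and Meis1 were uncovered, and Lhx1, Msx1, Msx2, Irx3, Pax2 and Pax8 were covered in part or in full. Lhx1, needed for the duct to form, lay at 100% in all 16 lists. Msx2 had a median of 100% in control lists (lowest 95.6%) and in cKO lists (lowest 73.0%). Msx1 ran from 69.5% to 100% in control lists (median 91.7%) and from 76.4% to 100% in cKO lists (median 87.2%). Control and cKO lists overlapped for both Msx genes. Irx3, expressed in ovary and decidua, had a median of 97.2% in control lists (lowest 87.2%, highest 100%) and 96.3% in cKO lists (lowest 67.0%, highest 100%). Pax2, which the duct needs with Pax8, lay between 71.0% and 78.3% in all 12 lists, and Pax8 at 48.5% on average. The median of the list of 9 uterine and duct genes was 74.7%, that of 18 mesenchyme and limb genes 84.8% and that of 38 neural, eye and gut genes 90.7%. None of the 38 was under 15%, against 3 of 18 in the mesenchyme list (Prrx1, Prrx2 and Meis2). Emx2 and Meis1 of the uterine and duct list also lay under 15%, as did 63.7% of autosomal genes.

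Hox genes and further homeobox genes were measured for comparison. The 39 Hox genes had a mean of 50.6% and a median of 60.5%, and 44 homeobox genes outside the 29 prefixes, such as Onecut, Zeb and Cux genes, had a mean of 63.1% and a median of 78.9%. The 21 Polycomb and demethylase genes, which encode the machinery of the mark, had a median of 0.419%. These differences between lists of genes were not tested.

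The start of each gene was then looked at by sequence. RefSeq promoters (GRCm38.p6, 250 bases before to 50 after the start) were matched for 73 of the 104 genes, which have 85 promoters, and for 20085 autosomal promoters. A promoter was called covered in a list when at least 50% of its 300 bases lay in a peak. Of the 85 promoters, 54 were covered in all 12 lists, 12 in none and 19 in some, against 16.3% of autosomal promoters in all and 60.6% in none. CG pairs, the sites of DNA methylation that are dense in CpG islands, were counted on 1 strand. The median promoter of a member held 17 CG pairs and that of all autosomal promoters 14. Among promoters with 20 or more CG pairs, 25 of 36 member promoters were covered in all 12 lists, against 12.1% of 7451 autosomal promoters.

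The letters of 6 promoters are shown, since they put covered and uncovered CG-dense starts side by side. Each is the 250 bases upstream of the start, 5′ to 3′ on the strand of the gene, with CG pairs in capitals. Emx2 (chr19:59458440-59458689, plus strand, 24 CG pairs), Pbx2 (chr17:34592009-34592258, plus strand, 27) and Lmx1b (chr2:33641099-33641348, minus strand, 19), a LIM gene of dorsal limb and kidney, were covered in no list. Lhx1 (chr11:84525535-84525784, minus strand, 26) and Isl1 (chr13:116309689-116309938, minus strand, 33) were covered in all 16. Prrx2 (chr2:30845117-30845366, plus strand, 21) was covered in 9 of 12 lists of the Kdm6b set and in 0 of 4 B6CBAF1/J lists, where its level of cover was 0.
Emx2: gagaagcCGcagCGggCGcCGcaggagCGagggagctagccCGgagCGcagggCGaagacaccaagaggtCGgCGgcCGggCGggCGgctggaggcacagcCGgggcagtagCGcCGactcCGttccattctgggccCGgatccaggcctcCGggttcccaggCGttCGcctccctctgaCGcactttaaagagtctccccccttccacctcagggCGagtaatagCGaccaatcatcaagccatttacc
Pbx2: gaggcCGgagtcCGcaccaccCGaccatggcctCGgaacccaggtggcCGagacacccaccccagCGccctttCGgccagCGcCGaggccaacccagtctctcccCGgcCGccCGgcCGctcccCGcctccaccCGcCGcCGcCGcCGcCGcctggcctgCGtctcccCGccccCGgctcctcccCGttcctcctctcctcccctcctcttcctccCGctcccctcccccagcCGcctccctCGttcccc
Lmx1b: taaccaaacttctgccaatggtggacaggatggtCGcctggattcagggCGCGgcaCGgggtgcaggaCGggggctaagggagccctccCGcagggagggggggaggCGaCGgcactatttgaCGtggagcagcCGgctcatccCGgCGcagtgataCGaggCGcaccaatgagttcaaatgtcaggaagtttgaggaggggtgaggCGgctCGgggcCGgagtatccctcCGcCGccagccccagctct
Lhx1: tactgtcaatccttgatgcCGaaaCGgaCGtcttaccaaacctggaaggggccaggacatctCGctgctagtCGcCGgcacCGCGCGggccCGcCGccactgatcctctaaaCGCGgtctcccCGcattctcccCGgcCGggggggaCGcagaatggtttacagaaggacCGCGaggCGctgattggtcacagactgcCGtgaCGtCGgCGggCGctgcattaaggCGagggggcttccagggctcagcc
Isl1: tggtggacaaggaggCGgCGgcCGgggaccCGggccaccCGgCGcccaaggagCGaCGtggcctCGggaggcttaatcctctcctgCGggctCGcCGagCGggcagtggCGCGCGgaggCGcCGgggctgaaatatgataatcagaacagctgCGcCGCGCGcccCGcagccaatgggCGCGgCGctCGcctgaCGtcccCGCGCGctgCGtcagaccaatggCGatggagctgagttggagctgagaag
Prrx2: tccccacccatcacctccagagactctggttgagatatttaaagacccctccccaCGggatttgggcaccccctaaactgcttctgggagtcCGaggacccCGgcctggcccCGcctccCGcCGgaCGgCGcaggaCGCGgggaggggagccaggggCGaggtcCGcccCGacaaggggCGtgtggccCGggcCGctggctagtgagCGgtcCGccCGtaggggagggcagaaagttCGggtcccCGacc

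By count alone, the uncovered Emx2 and Pbx2 and the covered Lhx1 lay within 3 CG pairs of each other over these 250 bases. Lmx1b was chosen after its values were seen, because its gene was covered at 69.3% while its promoter never was. Pax8 was the opposite case, with its promoter covered in all 16 lists and its gene at 48.5%. The 12 promoters covered in no list were those of Emx2, Pbx2, Pbx4, Lmx1b, Meis1, Meis2, Meis3, Prrx1, Six5, Eng, Islr and Paxx. Barhl2, a gene of retina and spinal cord with 42 CG pairs in its promoter, was covered there in 2 of 12 lists while its gene averaged 72.1%.

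Of 17 pairs of consecutive members within 500 kb, 13 (76.5%) had mean coverages within 20 points, among them Dlx3 and Dlx4, Nkx2-1 and Nkx2-9, and Gsx1 and Cdx2. The same held for 56.4% of all 5356 pairs of members, and this difference was not tested. Among the exceptions were Vax1 (88.6%) and Emx2 (0), 288 kb apart, and Pax2 (74.7%) and Tlx1 (96.8%), 312 kb apart. Emx2 thus lay in the same neighbourhood as a covered homeobox gene.

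The first comparison asked whether loss of Kdm6b changed how much of each homeobox gene lay in peaks. Over the 6 pairs of lists, 3 of 93 members tested rose in cKO, 0 fell and 90 did not pass (limma on paired differences, adjusted p under 0.05 over 10205 genes). Of all genes tested 7.99% rose and 6.45% fell. The share of members that rose was therefore below the background, and 23 members had no difference in any pair because they were at 100% throughout. The median difference was 0.00 points for the members and 0.00 for all genes tested. By sign alone, 26 members had a positive mean difference and 44 a negative one, against 49.4% positive and 47.1% negative over all genes tested. In the Pgr-Cre GD14.5 IS pair 26 members were higher in cKO and 45 lower. In the other pairs 28 to 36 were higher and 23 to 31 lower, and mean signs without the Pgr-Cre GD14.5 IS pair were not counted. A mean coverage of 90% or more, held by 53 members, also limits how far a gene can rise. The genes tested include those of the X, which the members do not. On the autosomes 814 of 9384 genes rose and 489 fell.

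Meox2, a gene of muscle precursors and vascular cells (chromosome 12, 37108540 to 37179534), ran from 44.0% to 54.9% in control lists with a median of 50.1%. In cKO lists it ran from 47.8% to 67.8% with a median of 65.3%. The 2 groups overlapped in range, but the cKO list was higher in 6 of 6 pairs, by 11.2 points ± 5.48 (SD, n = 6 pairs, adjusted p = 0.0269 by limma). Its promoter was covered in all 16 lists and in a window of 2 kb around the start the difference was 0.00.

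Cdx1, a caudal-type gene of the intestine, had the largest rise of the 93 members. Control lists ran from 21.9% to 66.01% (median 44.8%) and cKO lists from 50.6% to 81.1% (median 73.3%). The groups overlapped and every pair was higher in cKO, by 24.8 points ± 13.3 (adjusted p = 0.0316 by limma). Cut into 3 equal parts, its window had 11.1% in control and 34.4% in cKO lists over the middle part. From lower to higher coordinates, the outer parts had 56.3% and 64.1% in control lists and 86.6% and 84.9% in cKO lists.

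Pax8, the duct gene (chromosome 2, 24420551 to 24475599), had control values of 40.8% to 49.02% (median 43.7%) and cKO values of 50.3% to 62.4% (median 51.6%). The 2 groups did not overlap. The difference was 9.40 points ± 5.27 (6 of 6 pairs, adjusted p = 0.0369 by limma). The part of the window at its start, covered at 93.1% in control and 98.0% in cKO lists, changed least, while the middle went from 0.454% to 11.98%.

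None of the 3 calls held under all settings. From peaks of −log10 q of at least 2 alone, the direction of Meox2 turned, with -8.15 points. Genome-wide, control lists held 390 to 1837 peaks past that threshold and cKO lists 144 to 492. With each pair left out in turn, Meox2 passed in 2 of 6 fits, and Cdx1 and Pax8 each in 1 of 6. Without the Pgr-Cre GD14.5 IS pair, Meox2 came to 10.6 points (adjusted p = 0.0749), Cdx1 to 26.7 (0.0639) and Pax8 to 7.59 (0.0498), so Meox2 and Cdx1 no longer passed. With all lists brought to equal covered length, 1 member rose, Cdx1, and 2 fell, Pax2 and Pax3. At that length 3.03% of genes tested rose and 4.19% fell, and Meox2 came to 12.6 points (adjusted p = 0.0696) and Pax8 to 2.65 (0.645, all by limma).

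The other members with the largest mean differences did not pass. Meox1, the partner of Meox2 in the somites, lay at 44.3% to 55.6% in control and 53.4% to 64.7% in cKO lists, a difference of 9.80 points in 6 of 6 pairs (adjusted p = 0.0507 by limma). Prrx2 differed by 8.95 points in 5 of 6 pairs (adjusted p = 0.0892). On the negative side, Evx1, which is active in the primitive streak and spinal cord, differed by -14.7 points (median 95.4% in control and 79.3% in cKO lists, lower in 5 of 6 pairs, adjusted p = 0.0762). Gsx1, of the ventral forebrain, differed by -8.91 in 6 of 6 pairs (adjusted p = 0.104). Barhl2 (-13.5, adjusted p = 0.255), Cdx2 (-14.3, 0.363), a gene of trophoblast and gut, and Dlx6 (-11.5, 0.358) had differences of both signs over the pairs. Without the Pgr-Cre GD14.5 IS pair Cdx2 came to -5.23, Dlx6 to -6.81, Barhl2 to -18.2, Gsx1 to -6.92, Evx1 to -13.98 and Prrx2 to 8.34 points. Without the Pdgfra-Cre pair Barhl2 came to -7.68 and Dlx6 to -6.82.

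**Figure D3:**
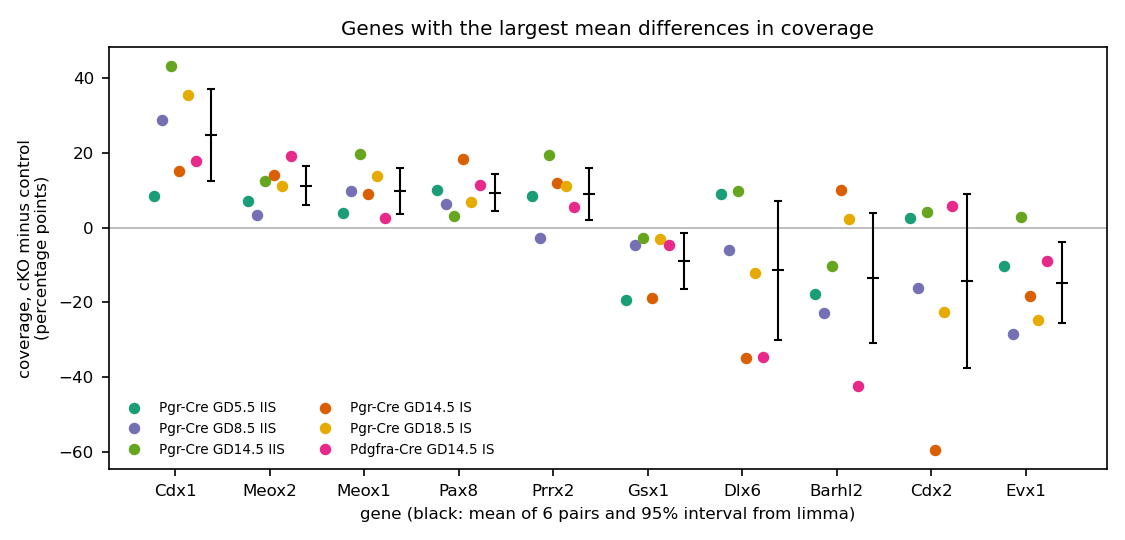
Difference in gene coverage, cKO minus control in percentage points (vertical axis), for the 5 largest rises and the 5 largest falls among the 93 members tested (horizontal axis). Coloured points are the 6 pairs of lists, and black marks are the mean with its 95% interval from limma. Cdx1, Meox2, Meox1 and Pax8 are above 0 in all 6 pairs, and Cdx2 has 1 pair far below the others.

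The uncovered genes had mean coverages of 0 to 11.6% in their own windows. The surroundings of each gene were therefore measured as well, from 2 to 200 kb outside the span and averaged over both sides. This comparison was added after the data were seen. In these flanks 33 of 104 members rose in cKO and 2 fell (limma, adjusted p under 0.05 over 19816 genes). Among all genes tested 28.5% rose and 17.1% fell, so the share that rose was near the background and the share that fell was below it. These genes include 885 of the X, of which 0 rose and 638 fell, and on the autosomes alone, where all members lie, 29.8% rose and 14.54% fell. The median difference was 1.78 points for members, 1.08 for all genes tested and 1.23 on the autosomes. The 2 that fell were Irx2 at -11.97 points and Alx1, a craniofacial gene, at -5.13, both chosen after their values were seen. In flanks of 50 kb both directions turned, with 1.07 points for Irx2 and 1.55 for Alx1, and neither passed. Without the Pgr-Cre GD14.5 IS pair 26 rose and 2 fell.

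Among the 14 genes under 15% coverage, 7 had a rise in the flanks and 0 a fall, against 30.5% and 12.9% of 11517 autosomal genes under 15%. Prrx1, Meis1, Emx2, Meis2, Islr and Prrx2 were among those that rose. Eng, Pbx2, Pbx3, Pbx4, Six5, Meis3 and Paxx had differences between -0.611 and 1.69 points and did not pass.

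Prrx1, the mesenchymal gene, had a flank difference that ranked 49th of 19816 genes. Control lists ran from 21.4% to 27.7% (median 25.5%) and cKO lists from 43.5% to 52.03% (median 50.6%), with no overlap. The difference was 23.8 points ± 4.27 (SD, 6 of 6 pairs, adjusted p = 3.14e-05 by limma), and it ran from 18.9 points in Pgr-Cre GD5.5 IIS to 30.6 in the Pdgfra-Cre pair. In Pgr-Cre GD14.5 IIS, the pair in which autosomal covered length was lower in cKO, it was 19.6 points. In B6CBAF1/J lists the flanks lay at 20.5% on GD0.5, 27.9% in GD5.5 IIS, 29.1% after vasectomized mating and 30.6% in NP P4.

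The additional peaks stood on both sides of Prrx1. On the side of lower coordinates, coverage went from 35.8% ± 4.34 to 55.1% ± 3.18 (SD, n = 6 lists each), and on the other side from 14.7% ± 2.07 to 42.98% ± 4.32. The nearest peak on the higher side lay 12.1 to 24.05 kb away in control lists and 2.13 to 8.69 kb in cKO lists, with no overlap. On the lower side the distance was 33.3 to 63.4 kb in control and 7.96 to 33.1 kb in cKO lists. A peak entered the gene window in 6 of 6 cKO lists, covering 0.621% to 2.84%, and in 1 of 6 control lists, covering 0.454%. In the fit with no filter on mean coverage this difference of 2.10 points within the gene was the 1 that passed among the members.

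These peaks were weak. The flanks of Prrx1 held 32 to 45 peaks per control list and 71 to 76 per cKO list, and no peak reached a −log10 q of 2 (highest 0.988). At equal covered length, which keeps the peaks of lowest p in each list, the difference was 15.1 points (16.97% to 32.1%, 6 of 6 pairs, adjusted p = 5.52e-05 by limma). Neither peak counts nor covered percent measure how much mark each site carries.

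**Figure D4:**
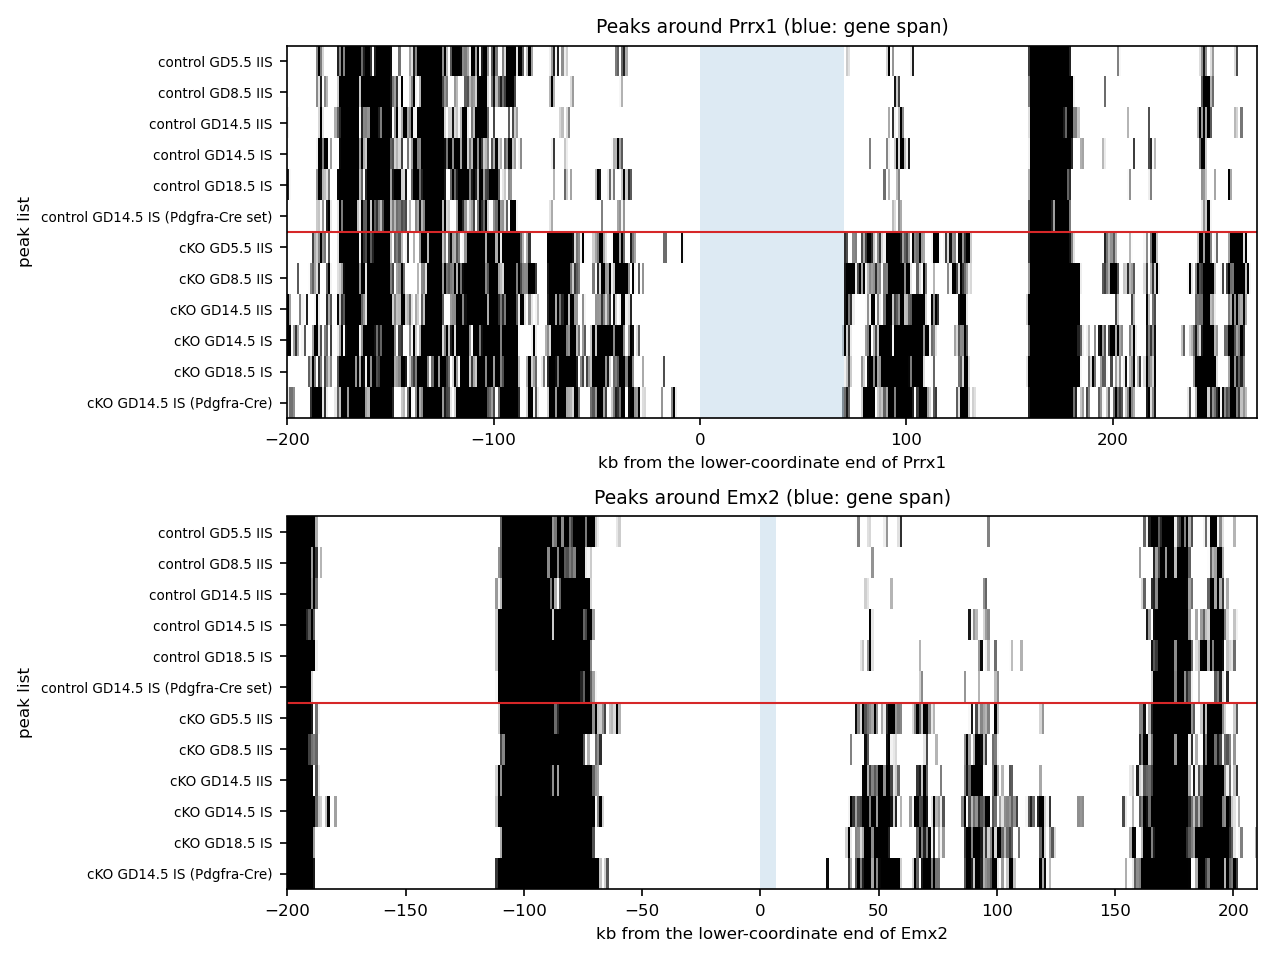
Peaks around Prrx1 and Emx2 in the 6 control lists (above the red line) and 6 cKO lists (below), in bins of 1 kb shaded from white (no peak) to black (fully in a peak), with distance from the lower-coordinate end of the gene in kb on the horizontal axis and the gene span in blue. The spans stay nearly free of peaks, and cKO lists hold more peaks on both sides of Prrx1 and on the higher-coordinate side of Emx2.

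Meis1, of the TALE class, had flank values of 26.95% to 35.9% in control lists (median 30.2%) and 41.8% to 49.1% in cKO lists (median 45.03%), with no overlap. The difference was 14.6 points ± 2.47 (6 of 6 pairs, adjusted p = 4.23e-05 by limma). Emx2 had 16.6% to 21.6% in control lists (median 18.8%) and 23.4% to 36.2% in cKO lists (median 30.8%), a difference of 11.8 points ± 4.12 with no overlap (adjusted p = 0.000565). The change in covered percent at Emx2 lay on the side of higher coordinates, where coverage went from 13.0% ± 2.83 to 34.4% ± 8.76, while the other side was at 25.1% ± 0.967 and 27.3% ± 1.90. Strong peaks went the other way at Emx2. Its flanks held 5 peaks of −log10 q of at least 2 over the control lists (highest 3.00) and 0 over the cKO lists (highest 1.97). This was not particular to Emx2, since control lists held 390 to 1837 such peaks genome-wide and cKO lists 144 to 492. The flanks of Meis1 held 0 such peaks in both groups. Meis2, of limb and heart mesenchyme, differed by 10.1 points ± 4.54 (38.7% to 50.03% in control, 49.5% to 59.3% in cKO lists, adjusted p = 0.00159), and the groups overlapped. In flanks of 50 kb Meis2 did not pass (5.72 points, adjusted p = 0.103). For Prrx2 the flank difference was 3.23 points (adjusted p = 0.0129) and for Islr, an adhesion protein gene of mesenchymal cells, 5.42 (adjusted p = 0.00145, all by limma).

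**Figure D5:**
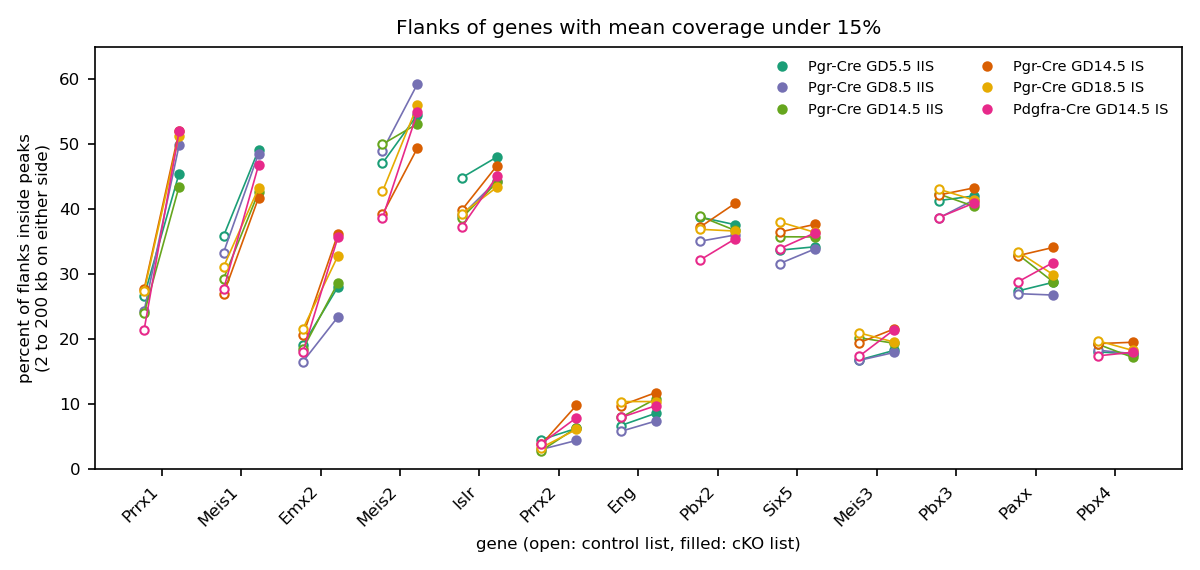
Percent of the flanks (2 to 200 kb on either side) inside peaks for 13 genes with mean coverage under 15%, with the control list (open) joined to the cKO list (filled) of each of the 6 pairs. The lines of Prrx1, Meis1, Emx2, Meis2 and Islr rise in all 6 pairs, and those of Paxx and Pbx4 go both ways.

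Some covered genes changed in their flanks too. Evx1, at the end of the Hoxa cluster, had 43.3% to 49.8% in control and 59.8% to 64.8% in cKO lists, a difference of 16.8 points (6 of 6 pairs, adjusted p = 3.49e-05 by limma), while its own window had the negative difference given above. In flanks of 50 kb Evx1 did not pass (adjusted p = 0.0528 by limma). Gsx2 differed by 10.5 points and Cdx1 by 9.01, each higher in 6 of 6 pairs (adjusted p = 0.00299 and 0.000286). Evx1, Gsx2 and Cdx1 are named here for their flank values after these were seen. Among the classes, 7 of 10 Hox-like ANTP genes (70%) rose in the flanks, 8 of 36 NK-like (22.2%) and 4 of 12 LIM (33.3%). So did 8 of 24 PRD (33.3%), 0 of 6 SINE and 5 of 13 TALE genes (38.5%). The falls were Alx1 in the PRD class and Irx2 in the TALE class. Over all autosomal genes 29.8% rose and 14.54% fell. Flanks of near neighbours overlap, as for the Hox-like Gsx1 and Cdx2, 110 kb apart, so genes of a class are not all separate counts. Differences between classes were not tested.

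The flank counts changed with total covered length. At equal covered length 20 of 103 members rose and 14 fell, against 18.6% and 22.2% of genes tested, and the median differences were -0.195 points for members and -0.0422 for all. Of the 14 uncovered genes 6 still rose, among them Prrx1 at 15.1, Meis1 at 9.03, Emx2 at 7.64, Meis2 at 5.82 and Islr at 2.502 points, and 1, Pbx4, fell by 2.02 points (adjusted p = 0.0415 by limma). Covered length itself differed between cKO and control lists, and its part in the counts with all deposited peaks was not tested further.

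The next question was whether the genes changed with gestation. In a comparison added after the data were seen, 8 lists of GD14.5 and GD18.5 were set against 4 of GD5.5 and GD8.5 with genotype as a covariate. Of 93 members 1 rose and 1 fell, against 2.52% and 1.70% of genes tested. All early lists are IIS and most late ones IS, so time and site cannot be told apart except in the IIS lists, where neither gene passed. Meox2 rose from 46.7% ± 3.29 (SD, n = 4 lists) to 59.3% ± 7.89 (n = 8), by 12.6 points (adjusted p = 0.00873 by limma), and the IIS lists alone gave 11.55 points (adjusted p = 0.356). Early lists ran from 44.0% to 51.0% and late lists from 48.1% to 67.8%, with overlap.

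Six4, a gene of muscle and kidney precursors that was chosen after its values were seen, fell. It lay at 60.9% and 55.7% in the control and cKO lists of GD5.5 IIS and at 46.3% and 33.9% on GD8.5. In the 8 late lists it ran from 16.6% to 36.5%. The difference was -24.5 points (adjusted p = 0.0376 by limma), with overlap of the lowest early list, and -16.9 points in the IIS lists alone (adjusted p = 0.649). The middle part of 3 equal parts of its window had a mean of 42.9% in early and 3.38% in late lists, the part at its start 97.5% and 69.3%, and both its promoters were covered in all 16 lists.

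Single pairs of lists, with 1 list per side and no test, were read at a size of 50 points. A gene can lose 50 points only from a start of 50% or more. Means of 90% or more were held by 51.0% of members and 6.52% of autosomal genes. The share of all genes that lost is therefore not a like background for members. In 12 of 20 comparisons of single lists no member gained or lost that much, while 0.0601% to 0.305% of all genes gained and 0.0416% to 1.09% lost. In the other 8, 2 gains and 9 losses were counted. They involved 6 genes: Cdx1, Cdx2, Barhl2, Dlx6, Six3 and Irx5.

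Most of these turned on the GD14.5 IS lists of the Pgr-Cre set. Cdx2 lay at 27.1% in the cKO list and 86.6% in its control (-59.5 points, 0.962% of genes lost that much). Against cKO GD14.5 IIS, the same cKO list was lower for Cdx2 (-69.0), Six3, an eye and forebrain gene (-53.3), and Dlx6, of jaw and limb (-51.3), where 0.0786% of all genes lost that much. Cdx2 was 50.2 points higher in cKO GD18.5 IS (0.139% of genes gained). In control lists, Barhl2 was 50.5 points lower in GD14.5 IS than IIS (0.203% lost), and Irx5, a heart and retina gene, 53.5 points higher in GD18.5 IS than GD14.5 IS (0.153% gained).

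The 2 control lists of GD14.5 IS, which carry the same label of genotype, site and day, differed by as much. Barhl2 was at 43.04% in that of the Pgr-Cre set and 100% in that of the Pdgfra-Cre set, and Irx5 at 46.5% and 100%, while 0.0416% of all genes lost 50 points in that direction. For Barhl2 and Irx5, these differences and those between control lists given above share their low side, the GD14.5 IS control list of the Pgr-Cre set. The comparisons are therefore not independent, and their like size does not measure the spread between lists of the same label. For Cdx2 these 2 control lists lay close together, at 86.6% and 88.7%. Mean coverage of the 104 genes was 71.9% in Pgr-Cre cKO GD14.5 IS and 75.9% to 79.5% in the other 11 lists, and 26 genes lay at 100% there against 37 to 56 elsewhere. Mean coverage over autosomal genes was not low in that list (23.9%, others 20.8% to 24.1%).

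In the B6CBAF1/J set, Cdx1 was at 92.5% on GD0.5 and 88.4% in GD5.5 IIS, and at 42.4% after vasectomized mating and 39.0% in NP P4. The differences from GD0.5 were -50.1 points, where 0.273% of all genes lost that much, and -53.5 points, where 0.661% did. Mean coverage of the 104 genes was 80.3%, 80.1%, 78.7% and 75.02% in the same order. No strong peak was involved in any of these 11 differences, since they were 0 when only peaks of −log10 q of at least 2 were counted. With 5 kb flanks in place of 2 kb, 1 of the 11 kept a size of 50 points, Cdx2 in cKO GD14.5 IS against IIS.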

How the data were processed

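H3K27me3 CUT&RUN libraries of mouse uterine fibroblasts were pooled by the authors, 3 samples to a list, into 16 lists of broad peaks. Of 80 samples 48 entered these lists and 32 were not analysed here. Reads were aligned with STAR 2.7.5c to mm10 and peaks called with MACS2 2.2.7.1, and samtools 1.10, bedtools 2.29.1 and bedGraphToBigWig 2.8 were used, per the labels and the submitters' processing notes. The deposited lists give, as MACS2 made them, each peak's position, its fold enrichment over background, and its −log10 p and −log10 q. These are the authors' values, and they were used here only to describe or filter peaks. The files give no read depth.

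Peaks were merged within a list, and coverage was computed as the percent of a gene span plus 2 kb on either side. Paired differences (cKO minus control, 6 pairs) were tested with limma 3.58.1 in R 4.3.3 over genes whose mean coverage reached 5%, with Benjamini-Hochberg adjusted p and a threshold of 0.05. The fit was tested on simulated data. Flank coverage and the comparison of late with early lists used the same tool and were added after the data were seen. The alternatives were equal covered length (the peaks of highest −log10 p up to 80% of the length of the shortest list), peaks with −log10 q of at least 2, other windows and filters, an unpaired fit, and each pair left out. Tables and plots were made with Python 3.11.15, numpy 2.4.6, pandas 2.3.3 and matplotlib 3.10.9.

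Members and gene lists were chosen with earlier results of these data known. Genes named were those that passed, the 5 largest rises and falls, those with a change of 50 points between single lists, the lowest and the fully covered members, and the uterine list. Others are stated as chosen after their values were seen. Results for some members are not reported here.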

Additional observations from a re-analysis of the deposited data

Results flagged for a closer look

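In 26 sets of 6 paired differences, each from the gene coverage or the flank coverage of 1 gene, 1 value far from the rest was searched for. Chance picks about 1 in 20 such sets. For gene coverage of Msx2, the Pgr-Cre GD14.5 IS pair differed by -27.0 points, while the other pairs lay between -7.49 and 0. The cKO list of that pair is the one that stood apart from the others. For gene coverage of Pax2, the Pgr-Cre GD8.5 IIS pair differed by 6.30 points, while the other pairs lay between -3.72 and -0.368.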

How the results depend on the processing

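Gene coverage gave 3 members risen and 0 fallen in cKO. At equal covered length 1 rose and 2 fell, with peaks of −log10 q of at least 2 and in the window at the start 0 rose, with no filter 1 rose, and with 1 pair left out 0 to 1 rose. Meox2 had -8.15 points with peaks of −log10 q of at least 2. Flank counts of 33 risen and 2 fallen became 20 and 14 at equal covered length, 18 and 0 with flanks of 50 kb, and 0 and 0 at −log10 q of at least 2. With flanks of 100 kb 1 fell, and 8 fell with the median difference subtracted. In flanks of 50 kb Irx2 had 1.07 and Alx1 1.55 points. Evx1 and Meis2 did not pass in flanks of 50 kb (adjusted p = 0.0528 and 0.103 by limma). With 1 pair left out 26 to 37 rose and 2 to 3 fell. Prrx1, Meis1 and Emx2 passed in the same direction in the 14 flank alternatives that tested them, which do not include −log10 q of at least 2. Late against early lists gave 0 risen and 0 fallen in the window at the start, in the IIS lists and at −log10 q of at least 2, where Meox2 had -9.09 points, and 0 fallen at equal covered length. Single comparisons, 2 gains and 9 losses in all, gave 33 and 49 at 25 points, 23 and 47 at equal covered length, 26 and 131 at −log10 q of at least 2, and 0 and 1 with 5 kb added. Mean coverage of 77.6% became 74.1% at equal covered length, 9.16% at −log10 q of at least 2 and 79.9% without Eng, Islr and Paxx, and the 53 genes of 90% or more became 1 at −log10 q of at least 2. The causes were not tested. A fold of at least 3 left no member to test. The pairs tested are lists matched by day, site and driver, and the fit without this pairing gave 2 risen and 0 fallen in gene coverage. For single samples, no paired analysis was possible because the lists pool them and carry no replicate numbers.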
